A study of Mus musculus with 9 samples.

Results

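The genes described here encode 10 membrane proteins through which a B cell signals to T cells: the CD28-family ligands Cd80, Cd86, Icosl, Cd274 and Pdcd1lg2, the TNF-superfamily ligands Cd70, Tnfsf4 and Tnfsf9, the surface glycoprotein Cd83 and the adhesion molecule Icam1. They were chosen by symbol, and each symbol matched 1 row of the count table, so 10 of 45361 genes in the table are described. All 10 passed the filter on low counts, which left 12580 genes for testing. The RNA came from CH12F3, a B-lymphoma line of the mouse in which antibody class switching is studied. All groups carried a Ligase4 knockout, which removes the ligase of classical DNA end joining, and all were stimulated with an anti-CD40, IL-4 and TGF-β mixture for 24 h. There were 3 libraries with valemetostat, an inhibitor of the histone H3K27 methyltransferases EZH1 and EZH2, 3 with tazemetostat, an inhibitor of EZH2, and 3 with the vehicle DMSO. The sources used here give neither doses nor the time in the inhibitors, nor whether the knockout line was 1 clone. Cells without stimulation were not analysed here. The series asked how transcription in these cells alters after either inhibitor.

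A T cell needs a costimulatory signal besides antigen. CD80 and CD86 on the presenting cell give it by binding CD28, and bind the inhibitory receptor CTLA4 more tightly. ICOSL binds ICOS, a receptor of follicular helper T cells, whereas PD-L1 (Cd274) and PD-L2 (Pdcd1lg2) bind the inhibitory receptor PD-1. CD70, OX40L (Tnfsf4) and CD137L (Tnfsf9) act through the TNF receptors CD27, OX40 and CD137. CD83 slows the removal of CD86 and MHC class II from the surface, and ICAM1 binds the integrin LFA-1 and steadies contact between the cells. CD40 ligation and IL-4 are known to raise several of these genes in B cells.

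Library totals ran from 34080504 to 46675110 counts. The B cell label was checked with 9 marker genes, all of which were measured. Their summed level was 1090 to 1140 TPM with valemetostat, 1050 to 1100 TPM with tazemetostat and 909 to 943 TPM in DMSO (TPM are transcript abundances per 1000000, corrected for length). Of 9 T cell markers, Trbc1 had 0 counts in all libraries, and the sum of all of them was 2.26 to 9.98, 3.19 to 4.20 and 2.12 to 7.20 TPM in the same order of groups. Among 12 dendritic cell and macrophage markers, Cd14 and Clec9a had 0 counts, which allows up to 0.0643 to 0.0880 CPM per library (3 counts; CPM are counts per 1000000 after TMM scaling). The list summed to 30.5 to 31.4, 31.9 to 35.4 and 29.0 to 35.8 TPM, most of it from the transcription factor Zbtb46 and the receptor Csf1r. Within that sum single genes differed between groups. Csf1r averaged 7.80 TPM with valemetostat, 7.91 TPM with tazemetostat and 11.3 TPM in DMSO, whereas the lysozyme gene Lyz2 averaged 1.52, 1.56 and 0.0300 TPM, the integrin gene Itgax 0.643, 0.747 and 0.0900 TPM and Adgre1 4.21, 3.69 and 1.94 TPM in that order. Of 5 plasma cell genes, Sdc1 had 12 counts in all libraries together, and the list summed to 764 to 772, 711 to 744 and 873 to 946 TPM. Most of that sum was Jchain, at 564 TPM with valemetostat, 533 TPM with tazemetostat and 694 TPM in DMSO. Irf4 averaged 79.6, 81.1 and 105 TPM in that order, Xbp1 122, 109 and 116 TPM and Prdm1 2.34, 2.11 and 2.58 TPM. The part of these markers in the results below was not tested.

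Promoter sequences are shown for Icosl, which rose most of the CD28-family ligands that passed the test. They are also shown for Cd80, the ligand gene that fell with both inhibitors, and for Icam1, whose promoter holds NF-κB and STAT matches. The RefSeq promoter table (GRCm38.p6, not the mm9 build of the deposited files) matched 5 of the 10 genes. Each window runs from 250 bases before to 50 bases after the listed start, on the plus strand. Capitals mark matches on either strand to the NF-κB site GGAAATTCC, the STAT motif TTCNNNGAA, the STAT6 motif and the TATA motif TATAAA.
Icosl promoter, chr10:78069118-78069417: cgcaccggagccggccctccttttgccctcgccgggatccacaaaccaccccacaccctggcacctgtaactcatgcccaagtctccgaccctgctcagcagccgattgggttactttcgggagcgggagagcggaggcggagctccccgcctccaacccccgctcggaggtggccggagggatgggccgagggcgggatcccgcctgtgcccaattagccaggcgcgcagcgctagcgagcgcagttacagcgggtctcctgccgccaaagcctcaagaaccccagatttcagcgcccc
Cd80 promoter, chr16:38458683-38458982: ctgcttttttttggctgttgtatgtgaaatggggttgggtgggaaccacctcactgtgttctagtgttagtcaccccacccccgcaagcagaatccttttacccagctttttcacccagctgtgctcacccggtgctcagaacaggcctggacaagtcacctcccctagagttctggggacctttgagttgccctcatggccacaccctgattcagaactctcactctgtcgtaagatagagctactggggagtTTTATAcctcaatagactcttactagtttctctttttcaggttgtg
Icam1 promoter, chr9:21015690-21015989: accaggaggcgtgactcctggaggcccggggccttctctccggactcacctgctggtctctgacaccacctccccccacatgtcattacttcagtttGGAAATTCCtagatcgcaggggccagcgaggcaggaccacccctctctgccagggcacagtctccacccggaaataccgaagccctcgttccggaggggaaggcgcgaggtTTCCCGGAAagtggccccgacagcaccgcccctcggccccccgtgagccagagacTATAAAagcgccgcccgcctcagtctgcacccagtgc
The Icosl window had 68.0% G and C and 26 CpG dinucleotides, an observed-to-expected CpG ratio of 0.762, and held none of the 4 motifs. The Cd80 window had 49.7% G and C and 3 CpG dinucleotides, a ratio of 0.164, and 1 TATA match on the minus strand. The median ratio over the 32851 promoters of the table was 0.384. The Icam1 window had a ratio of 0.623 and held 1 NF-κB, 1 STAT and 1 TATA match, none of them overlapping, and no STAT6 match. Among the 5 matched promoters only the Pdcd1lg2 window, which is not shown, held a STAT6 match. The NF-κB letters occur in 0.317% of all promoters in the table, the STAT motif in 8.30%, the STAT6 motif in 6.95% and the TATA motif in 13.6%. Only the motifs as written were searched, so a window without a match can still hold another form of a site. Icam1 was shown because of its matches, so they cannot be weighed against these shares.

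Levels in DMSO spanned a wide range, as the plot of TPM by gene shows. Cd83 was highest, at 146 ± 9.38 TPM (SD, n = 3). Cd70 (100 ± 15.1 TPM), Tnfsf9 (99.3 ± 7.16 TPM), Cd86 (97.9 ± 5.00 TPM) and Icam1 (94.7 ± 4.45 TPM) followed, and each overlapped the next in the order. These 5 genes lay between the 88.3 and 92.8 percentiles of all tested genes. Cd80, at 39.9 ± 2.16 TPM, was apart from Icam1 above it and from Icosl below it, at 23.9 ± 1.25 TPM. Cd274, the higher of the PD-1 ligand genes, was at 6.39 ± 0.799 TPM and Tnfsf4 at 1.86 ± 0.442 TPM. Pdcd1lg2 was lowest, at 0.490 ± 0.271 TPM, from 11, 27 and 20 counts in the 3 DMSO libraries. In both inhibitor groups Icosl and Cd80 overlapped (32.1 ± 1.35 and 31.6 ± 1.06 TPM with valemetostat, 33.5 ± 1.79 and 33.9 ± 2.38 TPM with tazemetostat), and so did Cd274 and Tnfsf4 (5.29 ± 0.941 and 4.50 ± 0.170 TPM with valemetostat, 6.50 ± 0.447 and 5.67 ± 0.416 TPM with tazemetostat).

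**Figure D1:**
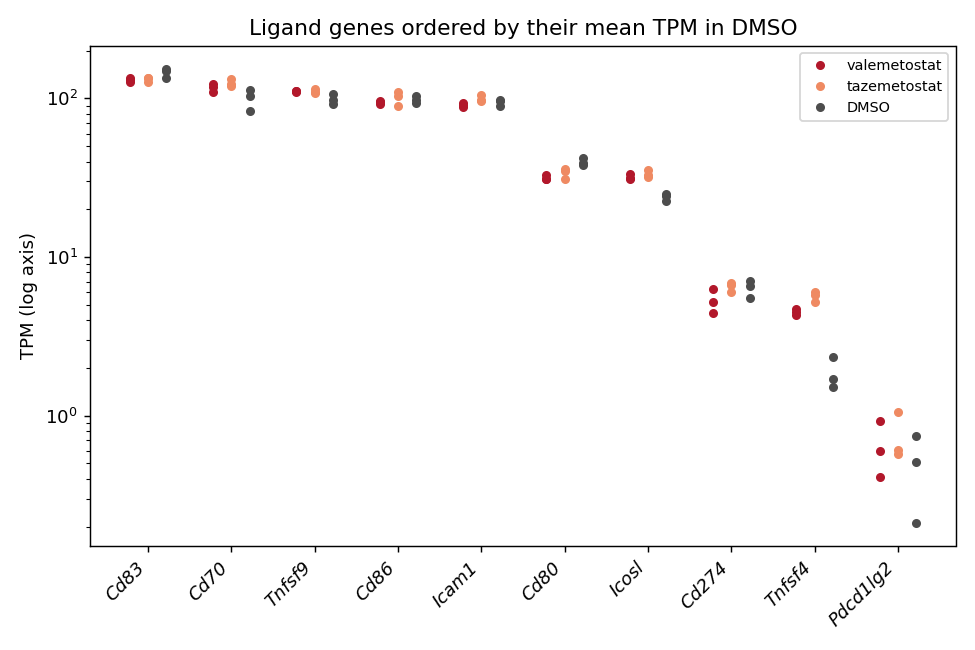
TPM of the 10 ligand genes (log axis) in each of 9 libraries, ordered by the DMSO mean; each point is 1 library, with 3 libraries each for valemetostat, tazemetostat and DMSO. The genes run from Cd83, at 146 TPM in DMSO, down to Pdcd1lg2, at 0.490 TPM, and Tnfsf4 and Icosl show inhibitor points above all DMSO points.

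Against DMSO, 4 of the 10 genes rose and 1 fell with valemetostat, and 6 rose and 1 fell with tazemetostat (edgeR quasi-likelihood test, Benjamini-Hochberg adjusted p under 0.05 over all tested genes). Tnfsf4, Icosl, Cd70 and Tnfsf9 rose with both and Cd80 fell with both, while Cd86 and Icam1 were called with tazemetostat. Over all 12580 tested genes 39.2% were called with valemetostat, 20.5% higher and 18.7% lower, and 38.1% with tazemetostat, 19.9% higher and 18.2% lower. The median log2 fold change of the 10 genes was 0.17 with valemetostat, against 0.01 over all tested genes, and 0.22 with tazemetostat, against 0.00. The median size of change, without its sign, was 0.25 with valemetostat, against 0.19 over all genes, and 0.22 with tazemetostat, against 0.18. The libraries did not overlap DMSO for 5 of the 10 genes with valemetostat, against 48.5% of all tested genes, and for 7 with tazemetostat, against 47.4%. Both comparisons use the same DMSO libraries. In the deposited table of log2(TPM + 1), called the TPM table below and tested with limma-trend, 3 of the 10 genes were called with valemetostat, against 26.3% of all tested genes, and 4 with tazemetostat, against 24.8%. Of all calls there 36.0% and 37.7% were higher, against 52.3% and 52.3% in the counts.

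**Figure D2:**
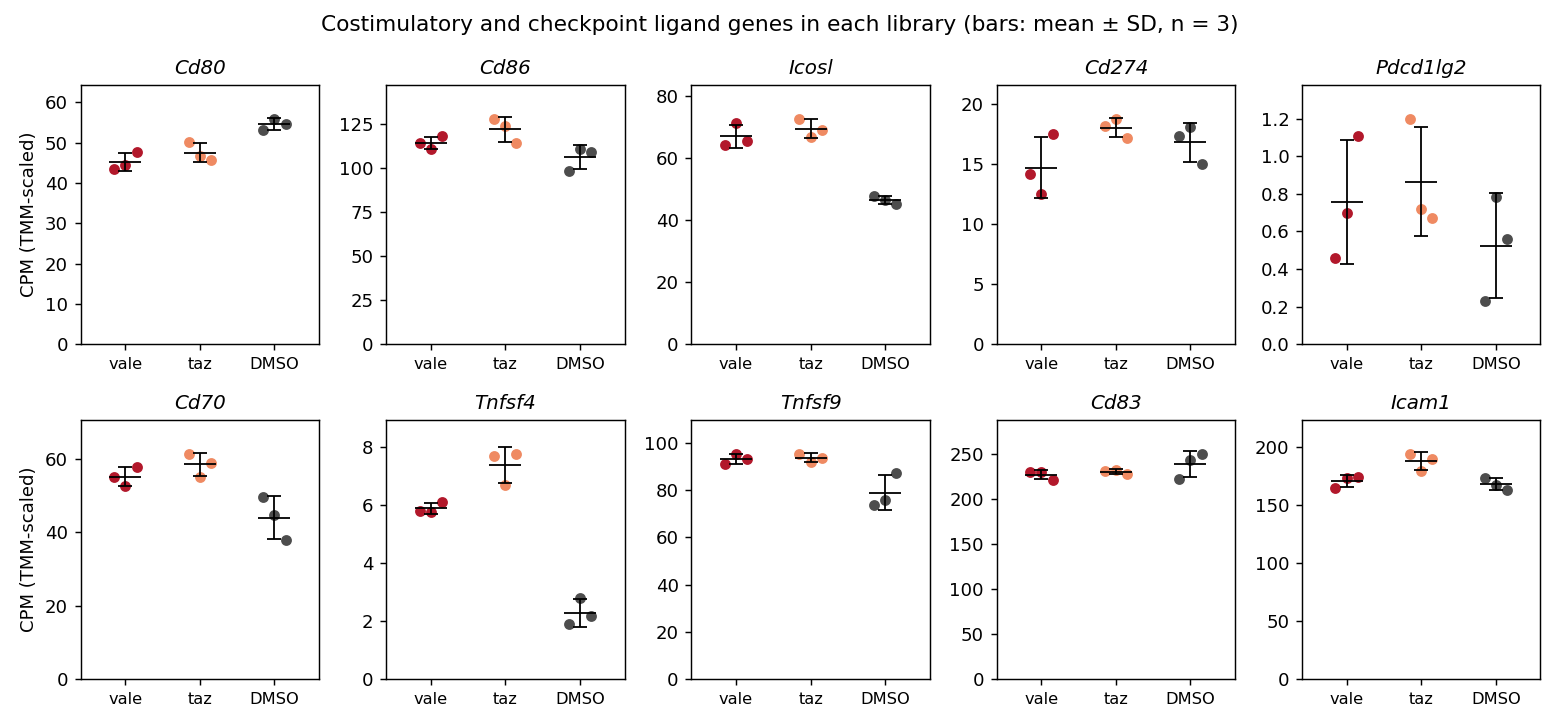
CPM (TMM-scaled, axes from 0) of each ligand gene in every library with valemetostat (vale), tazemetostat (taz) and DMSO; points are libraries, bars are mean ± SD of 3. Inhibitor and DMSO libraries separate for Tnfsf4, Icosl, Cd70, Tnfsf9 and Cd80, and overlap for Cd83 and Pdcd1lg2.

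Among the ligands of CD28 and CTLA4, Cd80 fell with both inhibitors and Cd86 rose with tazemetostat. Cd80 was at 43.5, 44.5 and 47.7 CPM with valemetostat, 50.2, 46.7 and 45.6 CPM with tazemetostat and 53.0, 55.9 and 54.7 CPM in DMSO. Every inhibitor library lay below every DMSO library. The log2 fold change was -0.27 ± 0.06 (SE) with valemetostat (edgeR adjusted p = 0.00106) and -0.20 ± 0.06 with tazemetostat (adjusted p = 0.0122). The tazemetostat call was lost without tazemetostat library 3 (adjusted p = 0.0706). Fewer cells with a transcript and less transcript per cell cannot be told apart in bulk RNA.

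Cd86 was at 114, 111 and 118 CPM with valemetostat, 128, 124 and 114 CPM with tazemetostat and 98.6, 111 and 109 CPM in DMSO. The tazemetostat libraries lay above DMSO, and the valemetostat libraries overlapped it. Valemetostat gave a log2 fold change of 0.10 ± 0.05 and no call (edgeR adjusted p = 0.140, 95% interval -0.01 to 0.21), and tazemetostat gave 0.20 ± 0.05 (adjusted p = 0.00529). That call was lost without DMSO library 1 (adjusted p = 0.0512) and in the TPM table, where the difference was 0.04 (adjusted p = 0.713 by limma-trend). The ratio of Cd86 to Cd80 TPM within a library does not depend on library scaling. It was 3.09, 2.98 and 2.90 with valemetostat, 3.07, 2.99 and 2.86 with tazemetostat and 2.50, 2.43 and 2.43 in DMSO. The groups with an inhibitor did not overlap DMSO. Each two-sided exact permutation test gave p = 0.10, the smallest that 3 libraries against 3 allow, and valemetostat against tazemetostat gave p = 0.80. The Cd86 to Cd80 ratio was chosen after the values were seen. A ratio of Cd274 to Pdcd1lg2, the PD-1 ligand genes, was tested in the same way. It was 8.94 ± 3.19 with valemetostat, 9.35 ± 2.69 with tazemetostat and 17.2 ± 12.2 in DMSO (SD). Against DMSO the exact permutation test gave p = 0.30 with valemetostat and p = 0.50 with tazemetostat.

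Icosl, the ligand of ICOS, rose the most of the CD28-family ligands that passed the test. It was at 64.1, 71.3 and 65.6 CPM with valemetostat, 72.7, 66.8 and 69.1 CPM with tazemetostat and 47.9, 46.6 and 45.3 CPM in DMSO. All 6 inhibitor libraries lay above the DMSO range. The log2 fold change was 0.52 ± 0.06 with valemetostat (edgeR adjusted p = 9.28e-08), a 1.44-fold rise, and 0.58 ± 0.06 with tazemetostat (adjusted p = 1.69e-08), a 1.49-fold rise. Both calls held in each of 15 alternatives, with log2 values from 0.41 to 0.56 and from 0.47 to 0.60. Of all tested genes, 88.3% had a lower fold change than or the same as Icosl with valemetostat and 89.0% with tazemetostat.

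The PD-1 ligands did not pass the test with either inhibitor. Cd274 was at 14.2, 12.5 and 17.5 CPM with valemetostat, 18.2, 18.8 and 17.2 CPM with tazemetostat and 17.4, 18.1 and 15 CPM in DMSO. The groups overlapped. Its log2 fold change was -0.19 ± 0.11 with valemetostat (edgeR adjusted p = 0.169, 95% interval -0.41 to 0.03) and 0.10 ± 0.11 with tazemetostat (adjusted p = 0.466, -0.11 to 0.32). Without valemetostat library 3, the highest of its group, Cd274 was called lower with valemetostat, at -0.33 (adjusted p = 0.0228). Pdcd1lg2 had 18, 24 and 41 counts with valemetostat, 55, 31 and 24 with tazemetostat and 11, 27 and 20 in DMSO. At this depth its intervals were wide, from -0.49 to 1.58 with valemetostat and from -0.27 to 1.77 with tazemetostat on the log2 scale, so changes of 2-fold were not resolved. Cd274 shares 511 exonic bases with an annotated antisense gene in GENCODE M21, Icam1 likewise 511 and Tnfsf9 192 with a noncoding gene, and reads of such pairs cannot be told apart when the use of strand is not given.

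Tnfsf4, which encodes OX40L, a costimulator of T helper cells, changed most of the 10 genes. It had 227, 199 and 225 counts with valemetostat, 354, 287 and 277 with tazemetostat and 89, 97 and 77 in DMSO. Scaled, this was 5.79, 5.77 and 6.09 CPM with valemetostat, 7.69, 6.68 and 7.78 CPM with tazemetostat and 1.88, 2.81 and 2.16 CPM in DMSO. Every inhibitor library lay above every DMSO library, with a wide gap. The rise was 2.59-fold with valemetostat (log2 1.38 ± 0.17, edgeR adjusted p = 3.75e-07) and 3.26-fold with tazemetostat (log2 1.70 ± 0.17, adjusted p = 8.95e-09). It was the 1 gene of the 10 that changed at least 2-fold, against 6.45% of all tested genes with valemetostat (5.37% higher) and 6.41% with tazemetostat (5.53% higher). Both calls held in each of 15 alternatives, with log2 values from 0.95 to 1.55 with valemetostat and from 1.23 to 1.87 with tazemetostat. The 0.95, which is under 2-fold, came from the TPM table. Even after the rise it stayed low, between the 27.4 and 30.7 percentiles of TPM over the tested genes.

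The 3 genes with the profile most like Tnfsf4 over the 9 libraries were Gcnt1, a glycan-branching enzyme, Adgre1, an adhesion receptor known as F4/80 on macrophages, and Ndrg1, a stress-response gene. Their centred log2 CPM differed from those of Tnfsf4 by a root mean square of 0.14 (Gcnt1), 0.15 (Adgre1) and 0.15 (Ndrg1). Gcnt1 averaged 26.1 CPM with valemetostat, 29.0 CPM with tazemetostat and 9.15 CPM in DMSO, and Adgre1 averaged 7.03, 8.25 and 2.80 CPM in the same order. Ndrg1 averaged 20.5, 23.3 and 7.70 CPM. In TPM the order of the inhibitors was the other way round for Adgre1, at 4.21 TPM with valemetostat, 3.69 TPM with tazemetostat and 1.94 TPM in DMSO. Its likeness to Tnfsf4 was measured in CPM only. Adgre1 missed the threshold with tazemetostat in the TPM table (adjusted p = 0.0727 by limma-trend).

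Cd70 and Tnfsf9 rose less. Cd70 was at 55.1, 52.6 and 57.7 CPM with valemetostat, 61.5, 55.2 and 59.0 CPM with tazemetostat and 49.6, 44.6 and 37.8 CPM in DMSO. The inhibitor libraries lay above DMSO, whose own libraries were spread. The log2 fold change was 0.32 ± 0.08 with valemetostat (edgeR adjusted p = 0.00159) and 0.41 ± 0.08 with tazemetostat (adjusted p = 0.000143). Cd70 is among the shortest transcripts, at the 7.09 percentile of effective length, and small fold changes moved with length (Spearman's rho across genes of -0.43 with valemetostat and -0.37 with tazemetostat). With a length offset Cd70 was at 0.16 with valemetostat (adjusted p = 0.152) and 0.28 with tazemetostat (adjusted p = 0.0163). In the TPM table the valemetostat difference was 0.23 (adjusted p = 0.106 by limma-trend).

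Tnfsf9, which encodes CD137L, was at 91.0, 95.2 and 93.3 CPM with valemetostat, 95.5, 91.7 and 93.8 CPM with tazemetostat and 73.8, 75.7 and 87.4 CPM in DMSO. All inhibitor libraries lay above the highest DMSO library. The log2 fold change was 0.24 ± 0.06 with valemetostat (edgeR adjusted p = 0.00155) and 0.25 ± 0.06 with tazemetostat (adjusted p = 0.00117). In the TPM table these were 0.15 and 0.16 and missed the threshold (adjusted p = 0.0674 and 0.0524 by limma-trend). Tnfsf9 also has a short transcript, at the 17.9 percentile of effective length, and with the length offset the values were 0.14 and 0.17, both called.

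**Figure D3:**
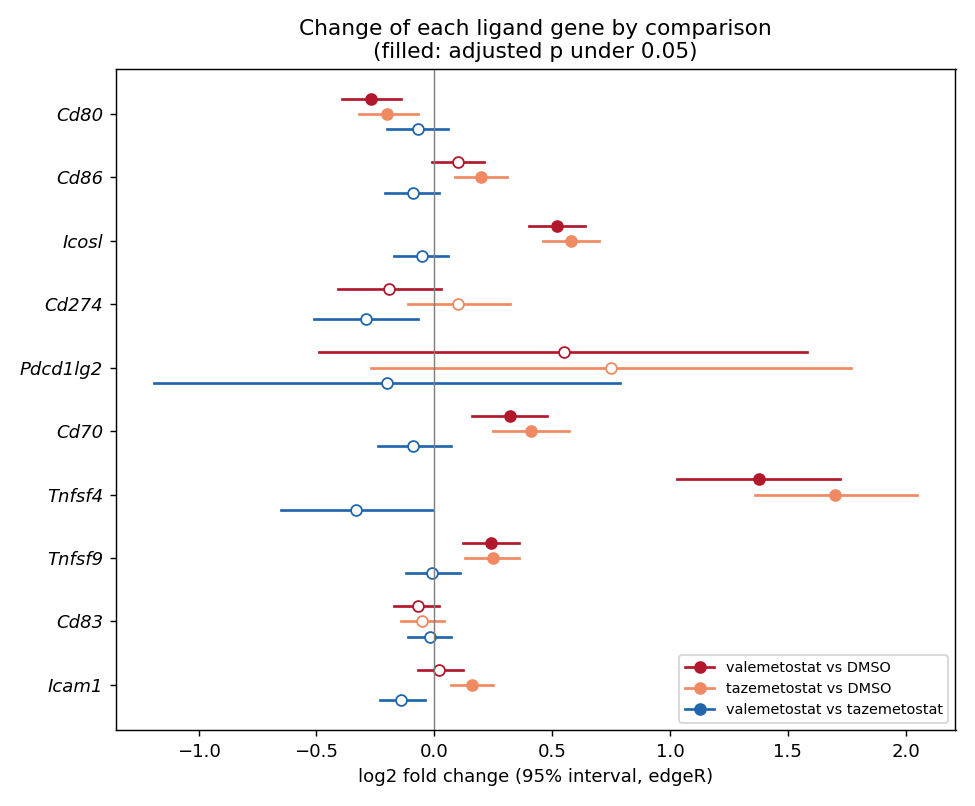
Log2 fold change of each ligand gene (points) with 95% intervals (lines) in 3 comparisons, from the edgeR fit over 12580 genes; filled points passed an adjusted p under 0.05. Tnfsf4 lies farthest right, at 1.38 with valemetostat and 1.70 with tazemetostat, Cd80 lies left of 0, and no point of valemetostat against tazemetostat is filled.

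Cd83 and Icam1, which act at the cell surface beside the ligands, changed little. Cd83 was at 229, 230 and 221 CPM with valemetostat, 231, 232 and 227 CPM with tazemetostat and 222, 243 and 250 CPM in DMSO. The groups overlapped, and the log2 fold changes of -0.07 ± 0.05 and -0.05 ± 0.05 did not pass (edgeR adjusted p = 0.227 with valemetostat and 0.402 with tazemetostat). The intervals, -0.17 to 0.02 and -0.14 to 0.04, leave room for small changes at most. Without DMSO library 1 Cd83 was called lower with valemetostat, at -0.12 (adjusted p = 0.0441).

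Icam1 was at 164, 173 and 174 CPM with valemetostat, 194, 179 and 189 CPM with tazemetostat and 173, 167 and 163 CPM in DMSO. The tazemetostat libraries lay above DMSO and the valemetostat libraries overlapped it. It rose with tazemetostat by 0.16 ± 0.05 on the log2 scale (edgeR adjusted p = 0.00672) while valemetostat gave 0.02 ± 0.05 and no call (adjusted p = 0.704, 95% interval -0.07 to 0.12). The tazemetostat call was lost without tazemetostat library 1 (adjusted p = 0.0520) and in the TPM table, where the difference was 0.08 (adjusted p = 0.314 by limma-trend).

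Set directly against each other, valemetostat and tazemetostat gave no called difference in any of the 10 genes (edgeR, 0 at an adjusted p under 0.05, and 0 with DESeq2). The smallest adjusted p-values of the 10 by edgeR were those of Icam1, at -0.14 ± 0.05 (adjusted p = 0.349), and Cd274, at -0.29 ± 0.11 (adjusted p = 0.423). Tnfsf4 came next, at -0.33 ± 0.15 (adjusted p = 0.615). Their 95% intervals did not include 0, at -0.23 to -0.04 for Icam1, -0.51 to -0.07 for Cd274 and -0.65 to -0.01 for Tnfsf4. These intervals are not adjusted for the number of genes tested. The median log2 fold change of the 10 genes was -0.09, against 0.00 over all tested genes. Tnfsf4 and Icam1 were also the 2 genes whose libraries did not overlap between the inhibitors, 20.0% of the 10 genes against 14.1% of all tested genes. For Icosl the 95% interval of the difference was -0.17 to 0.06, for Tnfsf9 -0.12 to 0.11 and for Cd80 -0.20 to 0.06, so differences beyond those bounds lay outside the intervals. For Pdcd1lg2 it was -1.19 to 0.79. That Cd86 and Icam1 passed with tazemetostat alone is therefore not a called difference between the compounds. Over all tested genes 40 (0.318%) were called here, 0.0636% higher and 0.254% lower, and 0.0318% by at least 2-fold. That count was 11 without tazemetostat library 1, 19 without tazemetostat library 2, 73 without tazemetostat library 3, 13 without valemetostat library 1 and 9 without valemetostat library 2.

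Several of these genes sit next to each other on the chromosomes in the RefSeq order of protein-coding genes (GRCm38.p6). Tnfsf9, Cd70 and Tnfsf14 follow each other on chromosome 17. Tnfsf14, which encodes the TNF ligand LIGHT, rose by 1.05 ± 0.19 on the log2 scale with valemetostat (edgeR adjusted p = 9.74e-05) and by 1.26 ± 0.19 with tazemetostat (adjusted p = 8.72e-06), so all 3 rose with both. Beside Tnfsf4 on chromosome 1, Tnfsf18, which encodes the ligand of GITR, had 161 counts in all libraries together, and its 0.66 with valemetostat and 0.94 with tazemetostat missed the threshold (adjusted p = 0.391 and 0.201). Prdx6, on its other side, was at 0.03 and 0.04. Beside Icosl on chromosome 10, Dnmt3l, a cofactor of DNA methyltransferases, was at 0.97 with valemetostat (adjusted p = 5.63e-05) and 1.09 with tazemetostat (adjusted p = 1.18e-05), while Gatd3a on the other side did not pass. Casr, which encodes the calcium-sensing receptor and lies beside Cd86 on chromosome 16, was at 1.60 (adjusted p = 0.000284) and 1.43 (adjusted p = 0.00095). Ric1, beyond Pdcd1lg2 on chromosome 19, was at -0.42 (adjusted p = 3.85e-06) and -0.45 (adjusted p = 1.31e-06). Neither neighbour of Cd80, Adprh or Timmdc1, passed, nor did Ildr1, Plgrkt, Jarid2, Tubb4a or Mrpl4. Of 16 neighbours 14 were tested. With valemetostat 4 of them were called, against 39.2% of all tested genes, and with tazemetostat the same 4, against 38.1%. These neighbours were looked at after the ligand values were known.

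The other genes of the pathway were read from 4 lists, shown in the plot of lists beside all tested genes. Over all tested genes 20.5% rose and 18.7% fell with valemetostat, and 19.9% rose and 18.2% fell with tazemetostat. The first list holds 34 other genes of T cell contact, most of them ligands, with receptors such as Cd40 and Tnfrsf14 and members of other families such as Lgals9, Cd47 and Slamf1. Of these 27 were tested, and 10 rose and 2 fell with each inhibitor. Cd40 is among those that rose and is counted again in the CD40, NF-κB and STAT list. Their median was 0.17 with valemetostat, against 0.01 over all genes, and 0.18 with tazemetostat, against 0.00. Tnfsf8, which encodes CD30 ligand, averaged 38.2 CPM with valemetostat, 33.6 CPM with tazemetostat and 10.4 CPM in DMSO, log2 fold changes of 1.87 ± 0.08 and 1.69 ± 0.08 (edgeR adjusted p = 9.53e-16 and 8.85e-15). Tnfsf15, the ligand of death receptor DR3, averaged 104, 102 and 42.5 CPM in the same order of groups, log2 fold changes of 1.30 ± 0.07 and 1.27 ± 0.06. Vsir, which encodes the inhibitory ligand VISTA, rose by 1.07 ± 0.12 with valemetostat and 0.97 ± 0.12 with tazemetostat. In the TPM table it missed the threshold with valemetostat (adjusted p = 0.0531 by limma-trend). The cytokine gene Tnf fell, with 8.89 CPM with valemetostat and 10.8 CPM with tazemetostat, against 18.4 CPM in DMSO, log2 fold changes of -1.05 ± 0.10 and -0.77 ± 0.10.

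Several receptors for these ligands had transcripts in these libraries. Of 10 counter-receptor genes 9 were tested, and 5 rose and 1 fell with valemetostat, and 6 rose and 1 fell with tazemetostat, beside the shares of all tested genes given above. Their median was 0.57 with valemetostat, against 0.01 over all genes, and 0.68 with tazemetostat, against 0.00. Tnfrsf9, the receptor of the Tnfsf9 product, averaged 3.04 CPM with valemetostat, 3.26 CPM with tazemetostat and 0.896 CPM in DMSO, log2 fold changes of 1.76 ± 0.24 and 1.86 ± 0.24 (edgeR adjusted p = 2.31e-06 and 1.02e-06). Cd28 averaged 54.0, 58.5 and 36.4 CPM in that order (log2 0.57 ± 0.06 and 0.68 ± 0.06). Ctla4 averaged 28.1, 32.0 and 14.8 CPM (0.92 ± 0.08 and 1.11 ± 0.08). Itgb2, the beta chain of LFA-1, rose by 0.28 ± 0.06 and 0.26 ± 0.06, both past the threshold in counts but not in the TPM table (adjusted p = 0.0509 and 0.0609 by limma-trend). Icos had at most 3 counts per library in DMSO, so its fitted fold changes are not given. With its DMSO level set to a floor of 0.088 CPM (3 counts) it keeps its place at the top of the list, which fixes the medians at 0.57 and 0.68, the values of Cd28. Cd27, the receptor of CD70, had 3 counts in all libraries together and was not tested.

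**Figure D4:**
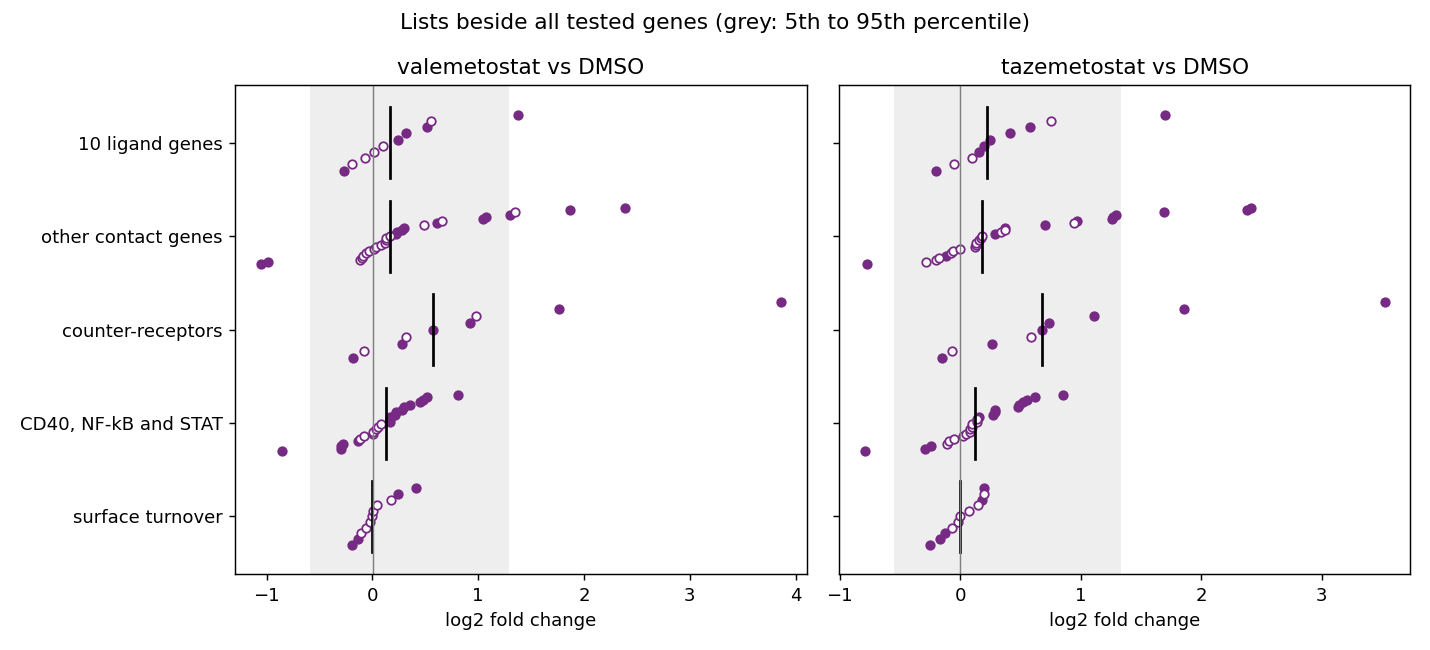
Log2 fold changes of the tested genes in the ligand set and 4 further lists with valemetostat (left) and tazemetostat (right); filled points passed an adjusted p under 0.05, vertical black bars are list medians and the grey band spans the 5th to 95th percentile of all tested genes (-0.58 to 1.28 and -0.54 to 1.32). Most ligand points lie inside the band, and the rightmost point is the counter-receptor Icos. It averaged 0.418 CPM with valemetostat, 0.331 CPM with tazemetostat and 0.029 CPM in DMSO. Only in DMSO was it limited to at most 3 counts per library.

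Upstream, in the list of CD40, NF-κB and STAT genes, all 24 were tested, and 12 rose and 5 fell with valemetostat, and 10 rose and 3 fell with tazemetostat, where 39.2% and 38.1% of all tested genes were called in either direction. The median was 0.12 with each, against 0.01 and 0.00 over all genes. Nfkbia, the NF-κB inhibitor that NF-κB itself induces, averaged 551 CPM with valemetostat, 535 CPM with tazemetostat and 384 CPM in DMSO, log2 fold changes of 0.52 ± 0.05 and 0.48 ± 0.05. The AP-1 factor Batf averaged 143, 157 and 112 CPM in the same order (0.36 ± 0.05 and 0.49 ± 0.05). Bhlhe40, a repressor, averaged 250, 311 and 202 CPM (0.30 ± 0.05 and 0.62 ± 0.05). Irf8, a B cell and myeloid regulator, fell by 0.85 ± 0.06 with valemetostat and by 0.79 ± 0.06 with tazemetostat on the log2 scale. Rel, the c-Rel subunit of NF-κB, and Bhlhe40 were lower with valemetostat than with tazemetostat, at 173 CPM against 225 CPM (log2 -0.38 ± 0.06, edgeR adjusted p = 0.00186) and 250 CPM against 311 CPM (log2 -0.31 ± 0.05, adjusted p = 0.00186). In the TPM table neither passed (adjusted p = 0.535 and 0.404 by limma-trend).

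The last list holds genes of surface turnover and trafficking of the ligands and of the receptor CTLA4. Log2 fold changes of its tested genes against DMSO were at most 0.41 in size. Of 12, 11 were tested, and 2 rose and 2 fell with valemetostat, and 2 rose and 3 fell with tazemetostat, beside the same 39.2% and 38.1% of all tested genes, with medians of 0.00 and 0.00. Cmtm6, which keeps PD-L1 at the surface, did not pass, at -0.11 ± 0.06 with valemetostat and -0.07 ± 0.05 with tazemetostat (edgeR adjusted p = 0.108 and 0.345). Marchf1, the ubiquitin ligase that removes CD86, had 57 counts in all libraries together and was not tested. The sheddase gene Adam10 fell by 0.14 ± 0.05 and by 0.17 ± 0.05, and both calls were lost with the length offset (adjusted p = 0.307 and 0.0687). The valemetostat call of Adam10 was also lost without DMSO library 1 (adjusted p = 0.0676), DMSO library 2 (0.0897) or valemetostat library 3 (0.0800), and the tazemetostat call without tazemetostat library 3 (0.0562). Adam17, another sheddase, fell by 0.19 ± 0.05 with valemetostat, which did not hold with the length offset (adjusted p = 0.0640). With tazemetostat Adam17 fell by 0.13 ± 0.05 (edgeR adjusted p = 0.0458). Cmtm3, a relative of Cmtm6, rose by 0.41 ± 0.11 with valemetostat. In the TPM table its difference was 0.46 and missed the threshold (adjusted p = 0.0998 by limma-trend). Stub1, a ubiquitin ligase, rose by 0.24 ± 0.06 with valemetostat and 0.18 ± 0.06 with tazemetostat, and neither held in the TPM table (adjusted p = 0.275 and 0.534 by limma-trend). With tazemetostat the Stub1 call was also lost with the length offset (0.0642) and without DMSO library 2 (0.0961), DMSO library 3 (0.0672) or tazemetostat library 3 (0.0906). Lrba, which protects CTLA4 from degradation, rose by 0.20 ± 0.07 with tazemetostat, and Zdhhc9, a palmitoyltransferase, fell by 0.25 ± 0.09. The Lrba call was lost in the TPM table (0.459), with library totals (0.0668) and without DMSO library 3 (0.116), tazemetostat library 1 (0.0816) or tazemetostat library 2 (0.127). The Zdhhc9 call was lost in the TPM table (0.0717) and without DMSO library 2 (0.0710), DMSO library 3 (0.152) or tazemetostat library 3 (0.170).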

How the data were processed

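The authors deposited raw counts for each gene (whole numbers, 1 column a library) and a second table of log2 values, which are log2(TPM + 1) because 2 to the power of each value, minus 1, gives whole hundredths in 100% of values (tolerance 1e-04 of a hundredth). The submitters' processing notes name mm9 as the build. The aligner, counting program, use of strand and annotation: not given in the sources used here. From the counts, all 9 libraries were fitted together with edgeR 4.0.16 (R 4.3.3): filterByExpr by group (minimum count 10, minimum total 15), TMM scaling, then the quasi-likelihood F test with robust dispersions and p-values adjusted over 12580 genes. Errors of log2 fold changes are the change over the square root of F. The labels do not say that libraries came from separate cultures, so p-values cover only the spread among these libraries, possibly technical. No replicate pair agreed within sampling noise (chi-square per degree of freedom 5.26 to 13.3). Floors of 3 counts cover counting error only.

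Alternatives were DESeq2 1.42.0, other scalings and filters, limma-trend (limma 3.58.1) on the deposited log2 values and with pseudocounts of 0.1 and 5, the replicate number as a term, the compared groups alone, a transcript length offset and leaving out each library. For the offset, each library's trend over effective length was fitted by a spline (5 degrees of freedom). The spline used genes of at least 3 log2 CPM, and lengths were taken from deposited counts and TPM. Members and lists were chosen with earlier results of these data known. All 10 ligand genes are named. From each list and comparison, up to 4 called genes with the smallest adjusted p are named, except items not reported here, and the 3 genes most like any ligand gene called at 2-fold. Other genes from the lists (Tnfsf14, Cd27, Icos, Cmtm6 and Marchf1), the neighbouring genes, the Cd86 to Cd80 ratio and the promoter motifs were chosen after values were seen. The fit was tested on simulated data.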

Additional observations from a re-analysis of the deposited data

How the results depend on the processing

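Alternatives that left out no library called 5 ligand genes with valemetostat and 7 with tazemetostat, except log2(TPM + 1) values (3 and 4) and the length offset (4 and 7). Without single libraries the counts were 5 to 6 and 6 to 7. On log2(TPM + 1) values 3123 genes were called with tazemetostat and 1 between the inhibitors, and Cd86 (-0.05) and Icam1 (-0.06) turned sign with valemetostat, with neither called. Between the inhibitors DESeq2 called 75 genes and no filter 93, and 9 to 73 were called without single libraries. Uncalled differences between the inhibitors that turned sign were Tnfsf9 with library totals (0.00) and without single libraries (-0.03 to 0.01) and Pdcd1lg2 without single libraries (-0.59 to 0.11). The cause was not tested. Replicate numbers did not pair the libraries (correlations of same-numbered libraries from -0.22 to 0.24), and with the replicate block 5, 7 and 0 ligand genes and 4713, 4527 and 32 of all genes were called with valemetostat, tazemetostat and between them. In the TPM table, pseudocounts of 0.1 and 5 in place of 1 changed no ligand gene's call, but moved Tnfsf4 to 1.25 and 0.47 with valemetostat and to 1.58 and 0.64 with tazemetostat. Depth limits Pdcd1lg2 most, at 11 to 55 counts per library, and it had no value under the filter of at least 1 CPM in 3 libraries.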
